A study of Mus musculus with 24 samples.

Results

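Of 24 mouse lungs profiled on expression arrays, 10 carried a strong signal of Krt13, a keratin of the upper layers of moist stratified squamous epithelium, and 14 did not. The 10 lungs were chosen by their own measured signal at the brightest probe of Krt13, on the log2 scale of the deposited values. A value above 10 made a lung Krt13-high, and a value of 10 or below made it Krt13-low. The lungs came from the AIRmax and AIRmin lines, mice bred to react strongly and weakly to an acute inflammatory stimulus. Within each line 6 mice, 3 of each sex, received 2 intraperitoneal injections of urethane at 1 mg per g of body weight, and 6, again 3 of each sex, received saline in its place. The injections were 48 h apart and lungs were taken 21 days later. The RNA was labelled as coming from normal lung parenchyma, 1 array per mouse, and the mice are told apart by their numbers.

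Stratified squamous epithelium is a layered sheet. Its basal cells divide under the factor p63, and their descendants rise, change their keratins, fill with envelope proteins and lipids, and are shed from the surface. In the mouse it lines the mouth, oesophagus and forestomach, covers the skin, and is keratinised at these sites. The wall of the mouse oesophagus, which runs beside the trachea, also holds striated muscle. Normal alveolar lung has no such layer.

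The class was read from the same arrays that are compared below. Krt13 and the 2 other markers, Crct1 and Lor, are therefore compared between the classes without a test. They were not taken out of the fit, so the counts of calls here and below include them. For every other gene a call, an adjusted p under 0.05 in a limma fit with line and treatment as covariates, says only that its level moved with Krt13 over these lungs. No p-value is printed for genes of the squamous or muscle lists for that reason. Of 18730 tested probes, 334 (1.78%) were called. Of these, 291 (1.55%) were called higher and 43 (0.23%) lower in Krt13-high lungs, and 141 of the higher ones differed by more than 1 on the log2 scale. None of the lower ones reached that size. Taken with 1 probe a gene, 236 of 13458 genes (1.75%) were called higher and 28 (0.208%) lower. Leaving out AIRmax female urethane mouse 4 left 223 probes higher and 4 lower, and leaving out AIRmax male saline mouse 9 gave 344 and 120. All arrays share the same distribution of values, so each difference is relative to the other transcripts of the array. The median difference of all tested probes was -0.034.

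Both a surface gene and a muscle gene are shown by the bases in front of their start sites, because the 2 sets of transcripts described below follow each other across most lungs without being the same set. The windows are from RefSeq on GRCm38.p6, run from 250 bases before to 50 bases after the start, and are written on the strand of the gene. Lor lies at chr3:92083093-92083392 on the minus strand, and Myh8 at chr11:67276874-67277173 on the plus strand. Capitals mark matches on either strand of TGANTCA, the site of AP-1 factors, and of the MEF2 box, the site of MEF2 factors of muscle.
Lor: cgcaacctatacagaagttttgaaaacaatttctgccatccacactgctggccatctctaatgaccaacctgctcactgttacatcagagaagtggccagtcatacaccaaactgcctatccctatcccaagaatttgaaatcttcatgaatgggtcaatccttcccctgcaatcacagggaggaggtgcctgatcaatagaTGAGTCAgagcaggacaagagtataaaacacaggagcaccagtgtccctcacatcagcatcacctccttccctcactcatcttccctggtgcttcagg
Myh8: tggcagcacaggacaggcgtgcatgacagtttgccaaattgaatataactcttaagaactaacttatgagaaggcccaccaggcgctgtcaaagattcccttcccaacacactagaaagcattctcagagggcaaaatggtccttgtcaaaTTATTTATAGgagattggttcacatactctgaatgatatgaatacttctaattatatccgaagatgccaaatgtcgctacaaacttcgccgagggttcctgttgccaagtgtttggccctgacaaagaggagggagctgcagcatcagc
The Lor window holds 1 match of TGANTCA, which begins 48 bases before the start, and no MEF2 box. The Myh8 window holds 1 MEF2 box, which begins 99 bases before the start, and no TGANTCA. Of 32851 such windows, 7.81% hold TGANTCA and 3.19% hold a MEF2 box, and the matches do not overlap each other. A match is a stretch of letters and was not tested as a binding site.

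The 3 markers split the lungs without overlap. Krt13 ranged from 7.28 to 7.67 with a median of 7.55 in the 14 low lungs, all at or below the background limit of about 7.88. In the high lungs it was 11.63 in mouse 9, 14.49 in mouse 17, 14.54 in mouse 2, 14.98 in mouse 10, 15.31 in mouse 3, 15.40 in mouse 7, 15.48 in mouse 23, 15.74 in both mouse 20 and mouse 4, and 15.88 in mouse 19. Mouse 9 stood far below the other 9, and its value was the nearest above the threshold, where the nearest below was 7.67. The difference in the fit was 7.21 and Krt13 was at least 131-fold higher in the high lungs. Crct1, a cornified envelope gene of the epidermal differentiation cluster, ranged from 7.24 to 7.92 in low lungs and was 10.18 or more in high ones, with a median of 14.11. Lor, which encodes loricrin, a main protein of the cornified envelope, ranged from 7.57 to 8.78 and from 12.75 to 16.05. Thresholds of 9 or 11, or Crct1 or Lor in place of Krt13, gave the same 10 lungs.

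The 10 lungs came from both lines, treatments and sexes, but not evenly from each combination of them. AIRmin lungs were Krt13-high in 7 of 12 and AIRmax lungs in 3 of 12 (two-sided Fisher's exact test, p = 0.214, 0.641 after Benjamini-Hochberg adjustment over 3 tables). Saline lungs were Krt13-high in 6 of 12 and urethane lungs in 4 of 12 (exact p = 0.68, adjusted 0.68), and the same counts held for female and male lungs. By line and treatment, 5 of 6 AIRmin saline lungs were Krt13-high, all but that of mouse 18, against 1 of 6 in AIRmax saline and 2 of 6 in each urethane group. With sex as well, AIRmin female saline lungs were Krt13-high in 3 of 3. AIRmax female saline and AIRmin male urethane lungs were Krt13-high in 0 of 3 each. One library labelled female, that of Krt13-high mouse 20, had the pattern of a male at Xist and Ddx3y, and it was kept under its label. Adding the class to a model of line and treatment moved the number of probes called between lines from 2133 (11.4%) to 1880 (10%), and the number called between urethane and saline from 139 (0.742%) to 114 (0.609%). The latter direction was not stable: when each mouse was left out in turn, the class raised the urethane count in 16 of 24 fits and lowered it in 8, and with no filter on dim probes it went from 107 to 110.

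**Figure D1:**
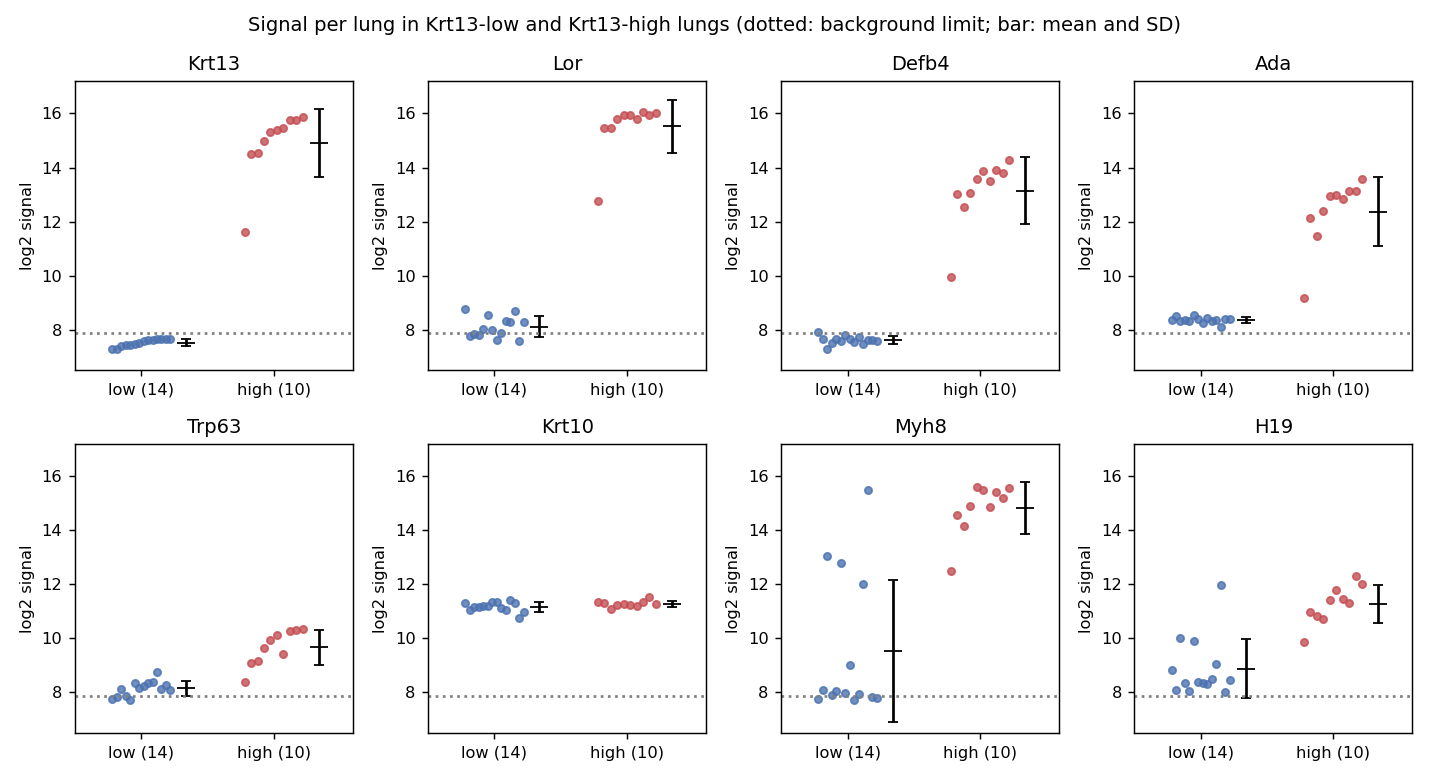
Log2 signal (vertical axes) of 8 genes in each of the 14 Krt13-low and 10 Krt13-high lungs; points are lungs, bars are the mean and SD, and the dotted line is the background limit. Krt13, Lor, Defb4 and Ada do not overlap between the classes, Krt10 overlaps throughout, and for Myh8 and H19 3 low lungs lie above the lowest high lung.

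Of the keratins, those of moist squamous lining and of the basal layer, which skin shares, were higher. Krt23 and Krt32 were also called higher, and Krt1 and Krt10 of the upper epidermis were not called. Krt4, the partner of Krt13 in the upper layers of the oesophagus, was at or below background in all low lungs and at least 35.8-fold higher in the high lungs. Krt14 and Krt5, the pair of the basal layer, differed by 4.26 ± 0.33 and 1.41 ± 0.18 (log2, SE of the fit), and Krt15, also basal, by 1.72 ± 0.20. Krt78 differed by 2.10 ± 0.29. Krt1 and Krt10, which pair with each other, differed by 0.06 ± 0.07 and 0.09 ± 0.07. Krt10 itself was well above background everywhere, at 10.74 to 11.41 in low lungs and 11.10 to 11.52 in high ones. Of 11 tested squamous keratins 6 were called higher, with a median difference of 1.41, and Krt13, which set the class, is 1 of the 6. Krt23 and Krt32 are outside that list. Krt32 lay above the midpoint of the class medians in 8 high and 0 low lungs, and Krt23 in 7 high and 3 low lungs.

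The cornified envelope list, which holds the markers Crct1 and Lor, was called higher in 21 of 24 tested genes, with a median difference of 2.18. Both markers are among the 12 that lay higher in every high lung than in any low lung, as did 0.374% of all tested probes. Asprv1, a protease of the granular layer that processes filaggrin, differed by 5.28 ± 0.42, and Rptn, an envelope precursor, by 5.03 ± 0.33. Cnfn, which encodes cornifelin, differed by 4.96 ± 0.33. Lce3b of the late cornified envelope family was at least 32.9-fold higher and Sprr3, a small proline-rich envelope protein of the oesophagus, at least 15.5-fold. The late cornified envelope family moved nearly as a whole, with 14 of 15 tested genes called higher, among them Lce1d at 4.38 ± 0.34. Casp14, a protease of the terminally differentiating layer, ranged from 6.87 to 7.30 in low lungs and from 7.56 to 11.21 in high lungs. Ivl, the gene of involucrin, another envelope precursor, lay between 7.48 and 8.26 in low and between 7.75 and 7.96 in high lungs, close to background, and was not called (0.04 ± 0.08).

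Krtdap, a secreted protein of differentiating keratinocytes, did not follow Krt13 lung by lung. It was 13.47 to 15.64 in 7 high lungs and 7.72 in mouse 2, 7.53 in mouse 7 and 7.73 in mouse 9. These 3 lungs lay within the low range of 7.46 to 7.84, although Krt13 was 15.40 in mouse 7. The gene had 1 tested probe, and a sequence variant under it was not tested.

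Beyond keratins, envelope proteins and striated muscle, genes of surface defence and protease control were among the largest differences. Defb4, a beta-defensin of the mouse tongue and oesophagus, ranged from 7.27 to 7.91 in low lungs. In the high lungs it was 9.96 in mouse 9, 13.02 in mouse 17, 12.54 in mouse 2, 13.04 in mouse 10, 13.59 in mouse 3, 13.86 in mouse 7, 13.50 in mouse 23, 13.91 in mouse 20, 13.78 in mouse 4 and 14.27 in mouse 19. No high lung fell within the low range, and the difference was 5.32 ± 0.32. Defb14, a second beta-defensin, was at least 4.32-fold higher. Of 36 tested genes for barrier defence and secreted proteins 19 were called higher, with a median difference of 0.51. Lypd3, a surface protein of suprabasal keratinocytes, and Calm4, a calmodulin-like protein of squamous epithelium, were at least 19.8-fold and 11.3-fold higher. Lgals7, the galectin of stratified epithelia, differed by 2.89 ± 0.28. Mt4, the metallothionein of stratified squamous epithelium, differed by 1.73 ± 0.19.

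The protease inhibitors Serpinb3a and Serpinb12 differed by 4.87 ± 0.34 and 4.78 ± 0.32, and Serpinb11 by 3.26 ± 0.31. A second probe of Serpinb3a gave 1.17, and the members of this serpin family are close in sequence, so their separate levels are uncertain. Kallikreins, serine proteases that act in shedding, were also higher, with Klk10 at 1.88 ± 0.27 and Klk14 at 1.39 ± 0.22. The list of epithelial proteases and inhibitors counted 13 of 32 tested genes as higher, with a median difference of 0.65. Of 21 desmosome and junction genes 5 were called higher, with a median of 0.19. They included Pkp1, a plakophilin of desmosomal plaques (1.94 ± 0.21), Dsc1, a desmocollin (0.72 ± 0.12), and the connexin Gjb2 (1.42 ± 0.22). Cdsn, the corneodesmosin that holds surface cells together, differed by 3.21 ± 0.30, and its 2 other probes gave 1.85 and 2.33.

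Ada was the leading metabolic gene of the set. It encodes adenosine deaminase, an enzyme of purine breakdown that is abundant in the squamous lining of the mouse upper digestive tract. It ranged from 8.09 to 8.53 with a median of 8.37 in low lungs, above background in all 14. In the high lungs it was 9.16 in mouse 9, 12.12 in mouse 17, 11.45 in mouse 2, 12.38 in mouse 10, 12.95 in mouse 3, 12.98 in mouse 7, 12.82 in mouse 23, 13.14 in mouse 20, 13.12 in mouse 4 and 13.56 in mouse 19. Every high lung lay above every low lung, and the order of the high lungs was close to that of Krt13. The difference was 3.80 ± 0.33, a 13.95-fold change, and a second probe gave 2.56.

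Lipid enzymes of the barrier formed a second metabolic set. Alox12b and Aloxe3, the lipoxygenases that act in turn on barrier lipids of the epidermis, differed by 2.66 ± 0.25 and 1.35 ± 0.16. Elovl4, which elongates very long fatty acids, differed by 1.61 ± 0.18. Of 35 tested genes of epithelial lipid, retinoid and alcohol metabolism 11 were called higher, with a median of 0.18. Aldh3a1, an aldehyde dehydrogenase that is also abundant in the cornea, was already at 11.44 to 12.96 in low lungs and rose to 12.69 to 14.73 in high ones, a difference of 1.68 ± 0.20. Them5, a thioesterase, and Psapl1, a prosaposin-like protein, were among the large differences outside the lists, at 3.49 ± 0.32 and 3.39 ± 0.31. Gsta1, a glutathione transferase, differed by 1.11 ± 0.16.

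Adh7, an alcohol dehydrogenase that metabolises retinol and ethanol in the upper digestive tract, was not called (0.18 ± 0.44), and the high lungs fell into 2 sets. It was 11.32 to 12.81 in AIRmin mice 10, 3, 7, 23, 20 and 19, and 7.37, 7.23 and 7.04 in the AIRmax mice 9, 2 and 4. AIRmin mouse 17 was at 7.21, like the AIRmax lungs. The highest low lung was at 11.48, near the lower end of the range of 11.32 to 12.81. In the AIRmin mice alone, mouse 17 included, the difference was -0.24 and was not called. Leaving out 1 mouse at a time in the full fit gave -0.01 to 0.65. Strong Krt13 was thus found both with and without Adh7, and a sequence variant under its single tested probe was not tested.

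Transcription factors of squamous differentiation were higher, by smaller steps than the genes above. Trp63, the p63 gene of basal cells, ranged from 7.73 to 8.74 in low lungs and from 8.38 to 10.36 in high lungs (1.40 ± 0.19), with 9 of 10 high lungs above all low lungs. Zfp750, a factor that p63 switches on in human keratinocytes, differed by 0.71 ± 0.09, Ovol1 by 0.64 ± 0.10 and Grhl3, a grainyhead-like factor of barrier formation, by 0.55 ± 0.10. Of 26 listed factors 7 were called higher, with a median of 0.12. Sox2, a factor of oesophageal and airway progenitors, was not called, at 8.40 to 9.19 in low lungs and 8.84 to 9.31 in high ones. Among channels and receptors 3 of 21 were called higher, with a median of 0.01. They included Aqp3, a water and glycerol channel of basal keratinocytes (0.89 ± 0.15), and Clca2, a p63-regulated chloride channel regulator (0.84 ± 0.12).

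Genes outside the squamous and muscle lists completed the set, secreted signals and enzymes among them. Of the 236 genes called higher 84 were in the squamous lists, 32 in the striated muscle lists and 120 in neither, and only 8 of the 236 were keratins. Of the 120, 39 differed by more than 1. The 120 include 9 late cornified envelope genes and also Cdsn, Lgals7, Mt4, Krt23 and Krt32, so the 84 do not count every squamous gene. The lists of other tissues or of lung cells hold 8 of the 120. Nmu, the neuropeptide neuromedin U, differed by 1.53 ± 0.21, and Fetub, fetuin-B, by 1.85 ± 0.27. Bglap3, an osteocalcin-related gene, was at or below background in the low lungs and at least 2.28-fold higher. Arg1, arginase of the urea cycle, differed by 1.80 ± 0.40. Its value was 13.74 in mouse 4, whose liver genes were high, and 8.53 to 10.88 in the other high lungs, against 8.14 to 10.01 in low lungs. Without mouse 4 the difference was 1.13. Its call ended with a mean for each cell (1.76), without the AIRmin saline mice (1.61) and with the muscle score as a covariate (0.98).

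**Figure D2:**
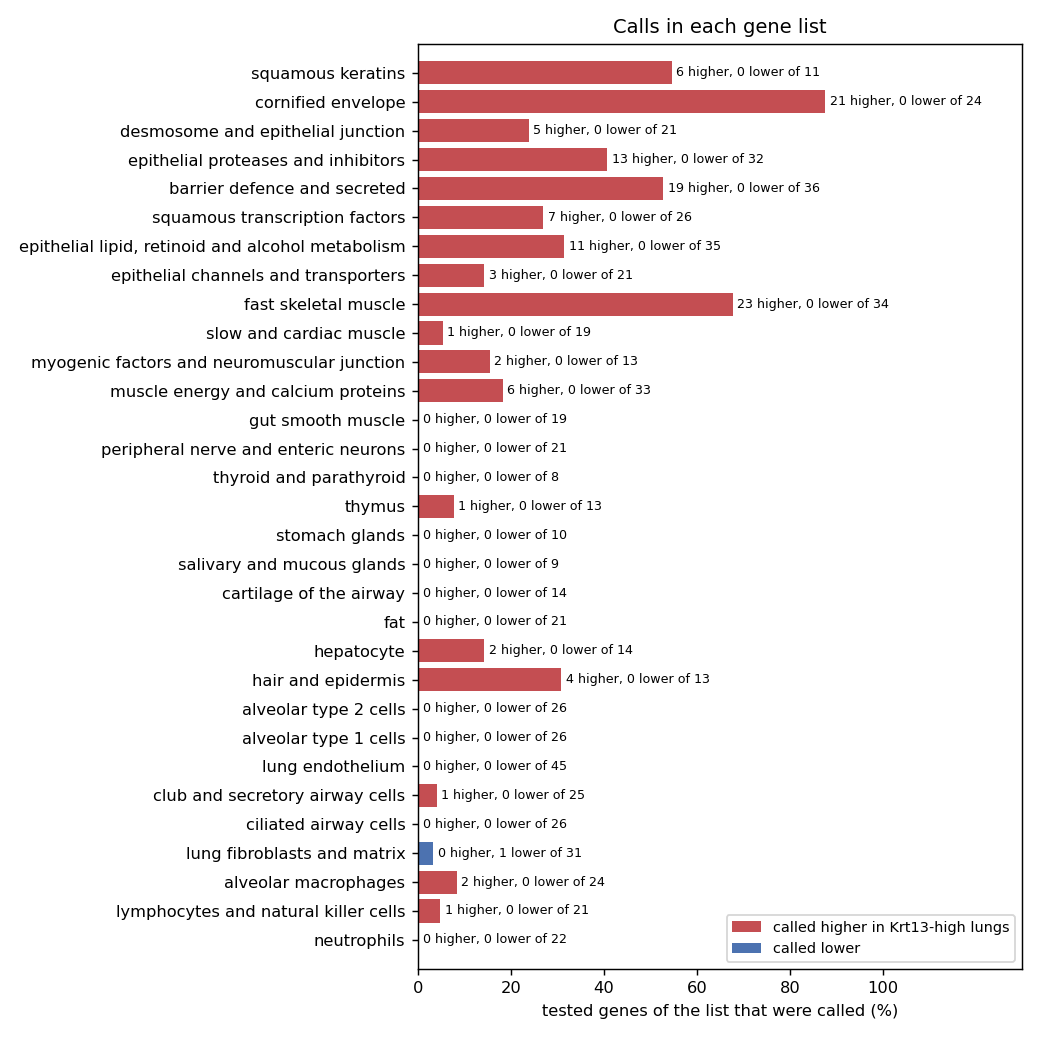
Share of each list's tested genes called higher or lower in Krt13-high lungs (horizontal axis, percent), with the counts beside each bar. Envelope, fast skeletal muscle, keratin and barrier defence lists have the largest shares, and smooth muscle, nerve, thyroid, stomach gland, salivary, cartilage and fat lists have no call.

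The fast skeletal muscle list was called higher in 23 of 34 tested genes, with a median difference of 1.18. Myh8, a perinatal myosin heavy chain, differed by 4.86 ± 0.74, Tnnc2, the fast troponin C, by 4.68 ± 0.68, and Acta1, skeletal actin, by 4.32 ± 0.71. Tnnt3, the fast troponin T, differed by 2.70 ± 0.38 and Ckm, muscle creatine kinase, by 2.30 ± 0.38. Slow and cardiac muscle genes were called in 1 of 19, Myl3 (1.87 ± 0.38), a slow and ventricular light chain. Of 13 myogenic and neuromuscular genes 2 were called, Myf6 (1.03 ± 0.17), a myogenic factor, and Chrna1 (0.53 ± 0.11), the acetylcholine receptor alpha chain. Muscle energy and calcium proteins were called in 6 of 33. In the AIRmin mice alone, whose low lungs include mouse 8, all 8 muscle genes named here lost the call, though the differences were of similar size (Myh8 4.69, Acta1 4.41, Ckm 2.33). Without the AIRmin saline mice Acta1 (3.77), Ckm (1.90), Myl3 (1.37) and Chrna1 (0.46) lost it.

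The muscle genes did not split the lungs as the squamous genes did. The muscle score, which averages over the list how far each gene in a lung lay from its median across lungs, ranged from 0.02 to 1.84 in high lungs and from -1.24 to 1.35 in low lungs. The top of the low range was AIRmin female urethane mouse 8. In it Myh8 was 15.48, Acta1 15.45 and Tnnt3 12.16, within the range of the high lungs, while Krt13 was at background. Of the 236 genes called higher, it lay above the midpoint of the class medians in 31 of 32 muscle genes, 0 of 84 squamous genes and 18 of the 120 others. The other low lungs exceeded that midpoint in 7 to 22 of the 236 genes, with 0 to 4 squamous and 0 to 9 muscle genes. Mouse 8 was itself among the low lungs that set the calls and the midpoint. Its 0 of 84 squamous genes was therefore largely fixed by how the genes were chosen. Low mice 5 and 14 had muscle scores of 0.02 and 0.07.

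Genes outside the lists differed in whether they were raised in mouse 8. This is 1 lung, and the tissue these genes came from was not tested. H19, an imprinted RNA that stays on in adult skeletal muscle, was 11.99 in mouse 8 and 9.88 to 12.29 in high lungs. Sim2, a bHLH-PAS factor, was 9.35 in mouse 8, and 8.09 to 10.53 in high lungs. Isl1, a factor of the branchiomeric muscle lineage, was 9.24, and Hoxd8 8.78, each at or above the highest high lung. Krt23, a keratin, was also above the midpoint in mouse 8, and Ada, Nmu, Bglap3, Them5 and Psapl1 were not. With the muscle score as an added covariate 44 genes were called higher, 43 of them among the 236. Defb4, Ada and Aldh3a1 kept the call, at 4.72, 3.10 and 1.55, as did Them5 (2.64) and Psapl1 (2.59). Sim2 (0.47) and H19 (0.29) lost it and so did Trp63 (0.80), Nmu (0.70) and Bglap3 (1.06). In the squamous lists 27 of 205 tested genes were called higher with that covariate and 84 without it. In the muscle lists 0 of 98 were called with it and 32 without. Krt5 (0.93), Krt15 (1.36) and Krt78 (1.37) were among the squamous genes that lost the call. The muscle score and the class overlap in what they describe, as 9 of the 10 high lungs had scores of 0.35 or more.

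**Figure D3:**
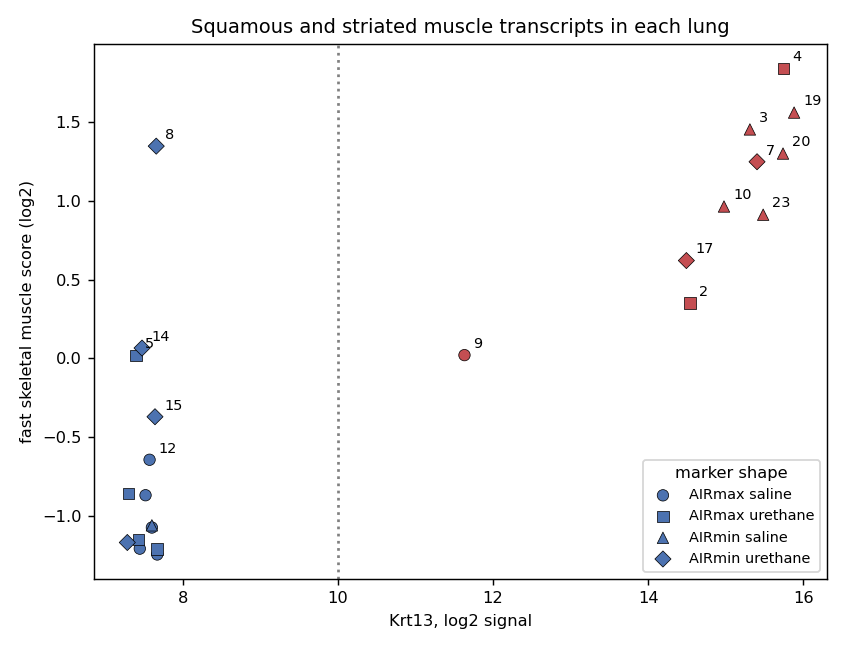
Krt13 log2 signal (horizontal axis) against the fast skeletal muscle score (vertical axis, log2) of each lung; colour gives the class, shape the line and treatment, and numbers the mice, the dotted line being the threshold. Mouse 8 has a muscle score of 1.35 with Krt13 at background, and mouse 9 has weak Krt13 and a muscle score of 0.02.

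The high lungs differed in amount. Mouse 9 was above the midpoint in 37 of the 236 genes, 8 of them squamous, and the other high lungs in 174 to 234. The squamous keratin score ran from 0.80 in mouse 9 to 2.84 in mouse 4, where the low lungs lay between -0.25 and 0.01. AIRmax female urethane mouse 4 also had high signals of liver and thymus genes, whose source was not tested. Its hepatocyte score was 6.34, where the other high lungs reached at most 0.36. Serpina1b, a liver protease inhibitor, was 16.05 in it and at most 11.54 in the other high lungs. Its thymus score was 1.81, with Rag1, the recombinase of immature lymphocytes, at 10.88, Dntt, which adds bases at the joints, at 9.21, and Cd8b1 at 14.71. The single call in the thymus list, Cd4 (0.29 ± 0.07), and the 2 in the hepatocyte list ended without mouse 4, and the hepatocyte median moved from 1.29 to 0.08.

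Other tissues of the neck and chest were not called. The lists of gut smooth muscle (19 tested genes), nerve (21), thyroid and parathyroid (8), stomach glands (10), salivary and mucous glands (9), airway cartilage (14) and fat (21) had no member called in either direction, with medians between -0.09 and 0.11. Tg, thyroglobulin, differed by -0.12 ± 0.05, Col2a1, cartilage collagen, by -0.08 ± 0.05 and Ucp1, of brown fat, by -0.07 ± 0.36. The list of hair and epidermis genes was called in 4 of 13, all of the late cornified envelope family.

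**Figure D4:**
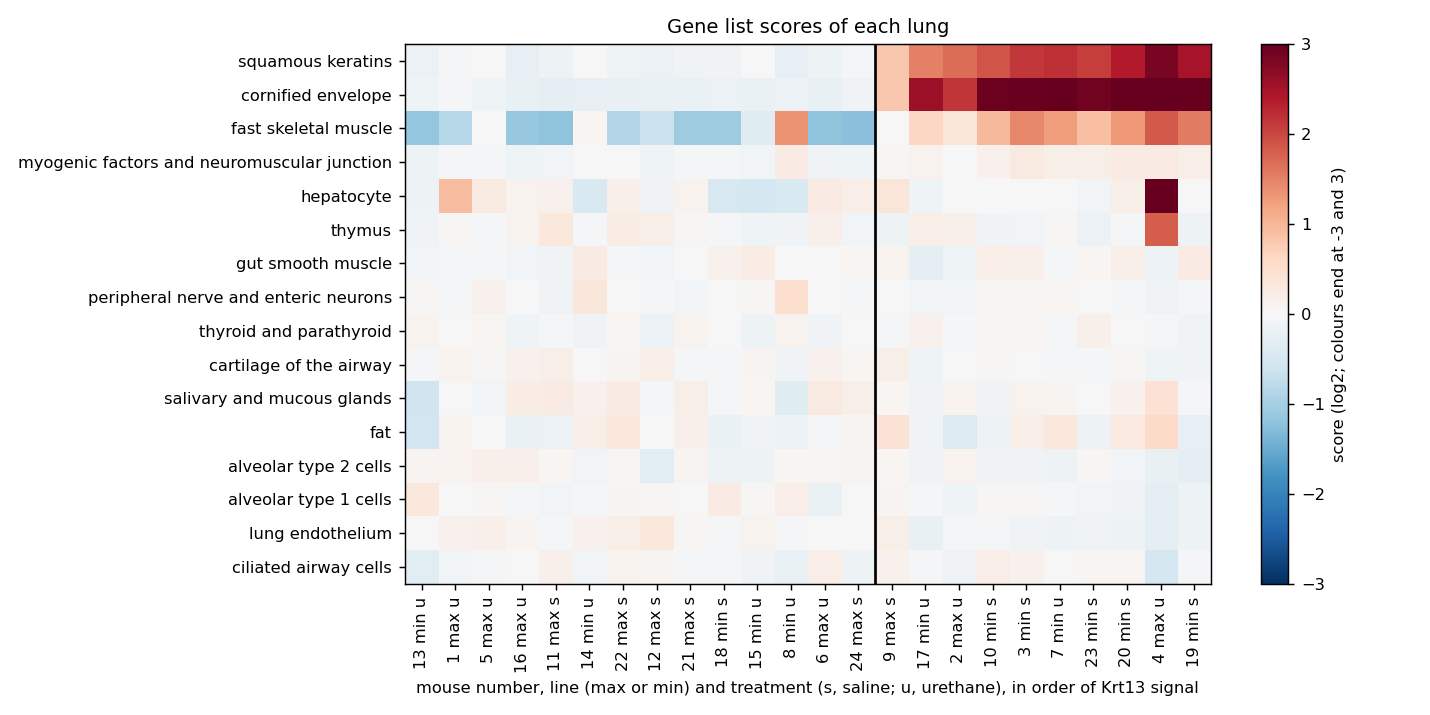
Score of 16 gene lists (rows) in each lung (columns, in order of Krt13 signal), in log2 units with colours ending at -3 and 3; the black line parts the 14 low from the 10 high lungs. Keratin and envelope scores switch at the line, muscle is also high in mouse 8, and hepatocyte and thymus scores are high in mouse 4.

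Of the 9 lists of lung cells 8 had a median below 0, all but that of lymphocytes and natural killer cells (0.05), and 3 had without mouse 4. Over all 9 lung lists together, 4 of 243 tested genes were called higher and 1 lower, where 1.75% and 0.208% of all genes were. The median difference of the 243 was -0.07, where the median of all probes was -0.034. Without mouse 4 the medians were -0.027 and -0.021, with no lung gene lower. Lung endothelium had a median of -0.17 over 45 genes with none called, and -0.11 without mouse 4. Its score ranged from -0.26 to -0.03 in 9 high lungs and was 0.18 in mouse 9, against -0.04 to 0.31 in low lungs. Alveolar type 1 genes had a median of -0.13 over 26 genes, and -0.14 without mouse 4. Type 2 genes had -0.03 over 26 and ciliated cell genes -0.01 over 26, which turned to 0.01 and 0.08 without mouse 4. None of these was called. In bulk tissue, fewer cells of a type and less RNA per cell cannot be told apart.

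The abundant genes of lung cells were not called. Sftpc, surfactant protein C of type 2 cells, was 15.95 to 16.08 in low and 15.91 to 16.01 in high lungs. Scgb1a1, of club cells, differed by 0.01 ± 0.03 and Ager, of type 1 cells, by 0.00 ± 0.03. These signals lie near the top of the arrays' range, whose highest intensity was 70078. Nkx2-1, the lung lineage factor, stood lower on the scale and differed by -0.19 ± 0.11. Cldn5, Pecam1 and Cdh5, junction genes of endothelium, differed by -0.07 ± 0.07, -0.18 ± 0.07 and -0.19 ± 0.07, and Scn7a, a sodium channel gene of the endothelium list, by -0.48 ± 0.13 (limma, adjusted p = 0.0687). None of these was called with the class in the fit, and without mouse 4 Pecam1 was at -0.097, Scn7a at -0.30 and Nkx2-1 at -0.11. With the Krt13 level as a continuous term, 6 of the 243 lung genes were called lower, where 0.542% of all 13458 genes were. They were Scn7a (-0.50), Sema3e (-0.33), of type 1 cells, and Cldn18 (-0.30), listed for both type 1 and type 2 cells. The others were Nostrin (-0.27), of endothelium, Gucy1b1 (-0.24) and Timp3 (-0.21). These differences are scaled to the gap between the class means.

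The genes called lower were few and their differences small. The 43 probes differed by -0.52 to -0.17, and no probe was lower in every high lung than in any low lung. Clec1a, a C-type lectin of endothelium, ranged from 11.79 to 12.65 with a median of 12.00 in low lungs and from 11.22 to 11.89 with a median of 11.62 in high lungs, and 7 high lungs lay below all low lungs (-0.46 ± 0.11, limma, adjusted p = 0.0185). Hey1, a Notch target of endothelium, was lower by a smaller step (-0.26 ± 0.06, limma, adjusted p = 0.0277). Both Clec1a and Hey1 are outside the endothelium list, whose 45 tested genes had no call. Bmp6, a growth factor of the TGF-beta family, differed by -0.44 ± 0.10, the immediate early gene Jun by -0.38 ± 0.10 and Rims3, a synaptic vesicle gene, by -0.48 ± 0.13. Gucy1b1, the beta chain of soluble guanylate cyclase, was the 1 fibroblast list gene called lower (-0.23 ± 0.06). All 6 lost the call without mouse 4, at -0.43 for Clec1a, -0.23 for Hey1, -0.37 for Bmp6, -0.35 for Jun, -0.53 for Rims3 and -0.20 for Gucy1b1, when 4 probes were left as lower, among them those of Ctps2, Lgals6 and Nhs. Differences without mouse 4 in Ctps2 and Nhs were -0.24 and -0.26.

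**Figure D5:**
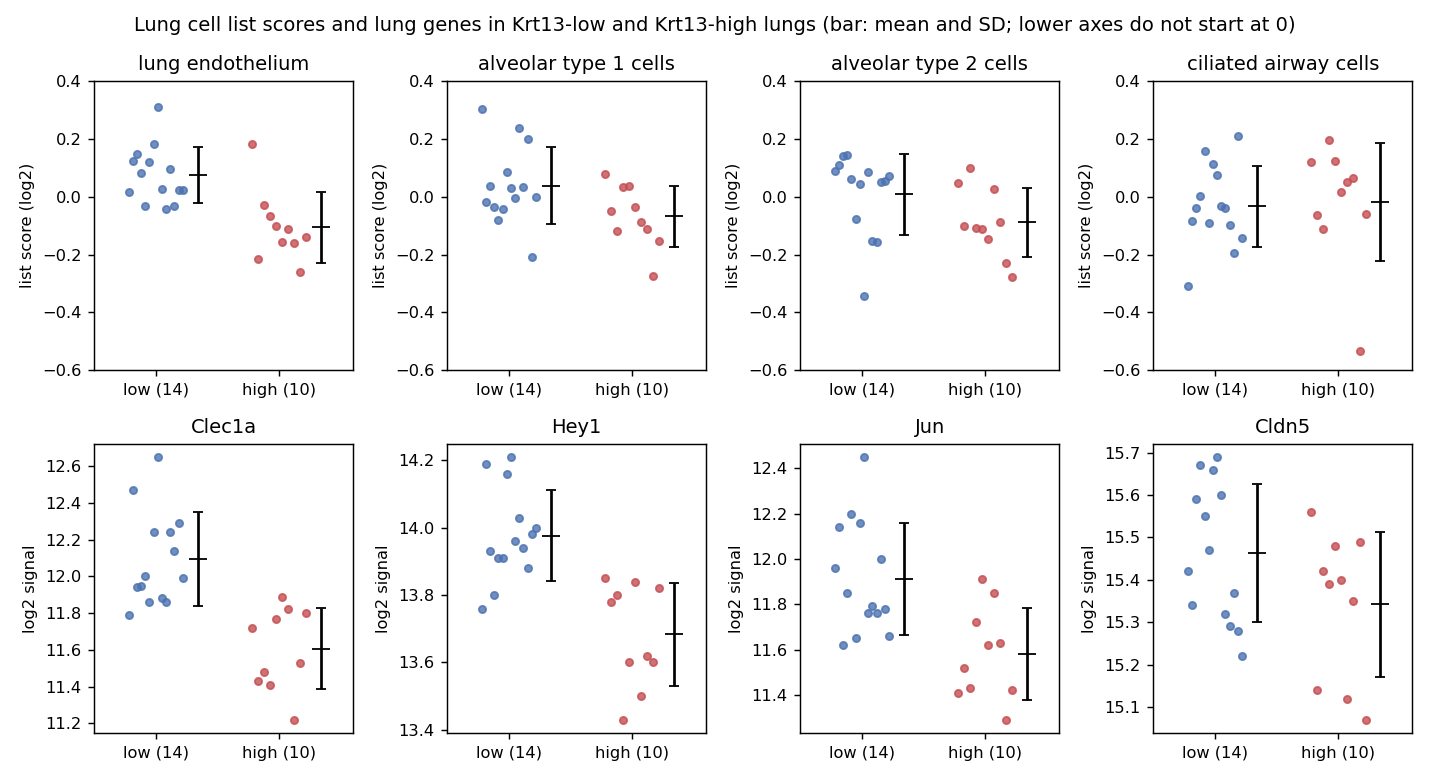
Scores of 4 lung cell lists (upper row, log2) and log2 signals of 4 lung genes (lower row, axes not from 0) in the 14 low and 10 high lungs; points are lungs and bars the mean and SD. Endothelium scores of 9 high lungs lie at or below -0.03, and Clec1a and Hey1 are lower in most high lungs while Cldn5 overlaps.

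Of the 243 tested genes of the lung lists 4 were called higher, about the share of all genes (236 of 13458, 1.75%). They were Gsta4, a glutathione transferase listed for club cells and also in the squamous lists (0.41 ± 0.08), Fabp5, a fatty acid binding protein listed for alveolar macrophages and also of keratinocytes (0.64 ± 0.16), Trim29, listed for macrophages too and known from squamous epithelium (0.56 ± 0.12), and Cd4. Fabp5 lost the call without mouse 4. Among the other genes of the fixed set, S100a8 of neutrophils differed by 0.19 ± 0.34, Il1b by -0.22 ± 0.35, Cdkn1a, a p53 target, by 0.17 ± 0.11 and Gdf15, a stress cytokine, by -0.12 ± 0.17, and none of the 4 was called. Gapdh, a glycolytic enzyme often used as a reference, was called higher by 0.29 ± 0.07, a call that ended without mouse 4.

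The number of calls depended on what else entered the fit. A mean for each of the 8 cells of line, sex and treatment gave 174 probes higher and 11 lower, the AIRmin mice alone 167 and 17, and the fit without AIRmin saline mice 152 and 2. The muscle score as a covariate left 50 higher. Slide and position of the arrays could not be matched to mice, so a share of the array layout in these differences was not tested.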

How the data were processed

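The deposited values are linear intensities of 25697 probes, quantile normalized by the authors as far as their sorted values show, which differed by at most 0.871% between arrays. The submitters' processing notes name BeadStudio. The gene symbol columns of 2 further deposited tables were used; 72 columns of per-array values in them, named by slide and position, match no label and were not used. Names were updated with RefSeq (GRCm38.p6), 20440 probes having a current and 4123 an older symbol.

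Intensities were converted to log2. The background limit was the mode of all values (7.40) plus the upper 0.01 quantile of the spread below it (SD 0.208). Probes above it on at least 3 arrays were tested, and each gene is shown by its probe with the highest mean. "At least N-fold" is the high mean over the limit where all low lungs are at or below it. Differences were fitted with limma 3.58.1 in R 4.3.3, with class, line and treatment, and adjusted by Benjamini-Hochberg. The script was tested on simulated data. Fisher's exact tests used scipy 1.17.1 and their adjustment statsmodels 0.14.6. P-values measure the spread between single arrays of separate mice, and the number of arrays limits the precision.

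The members and the gene lists were chosen with earlier results of these data known. Named genes are the 20 largest differences in each direction outside keratins and muscle lists, up to 4 called members of each list (2 by p where none was called) and a fixed set, of which a selection is printed. Another 29 genes were named after their values were seen: Krt15, Krt1, Krt10, Casp14, Cdsn, Krtdap, Ivl, Klk10, Klk14, Defb14, Lgals7, Mt4, Sox2, Sim2, Isl1, Hoxd8, Aloxe3, Them5, Psapl1, Arg1, Gsta1, Nmu, Fetub, Bglap3, H19, Rag1, Dntt, Cd8b1 and Gapdh, as were Ctps2, Lgals6, Nhs, Timp3, Krt23 and Krt32. A few called genes are not reported here. Alternatives changed the offset, background correction, filter, covariates, prior, weights, threshold, marker and mice.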

Additional observations from a re-analysis of the deposited data

Results flagged for a closer look

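Among the 10 Krt13-high lungs, 127 genes and list scores were examined for a lung whose gap to its nearest neighbour was a large part of the whole range (Dixon's criterion). Chance flags about 1 in 20 such sets when they are independent. These were not: they included Krt13, which set the class, Crct1 and Lor, and many other genes that moved with Krt13. The number of flags therefore does not count separate findings. In 41 sets a lung stood apart, 30 times AIRmax male saline mouse 9 and 11 times AIRmax female urethane mouse 4. The 14 low lungs were too many for the criterion.

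Mouse 9 was the lowest high lung in keratin, envelope and junction genes, with log2 signals of Krt13 (11.63), Crct1 (10.18), Lor (12.75), Krt4 (10.04), Krt14 (9.38), Asprv1 (10.73), Casp14 (7.56), Lce3b (9.28), Lce1d (8.55), Rptn (10.48), Cnfn (9.97), Sprr3 (8.50), Cdsn (8.45) and Pkp1 (8.12). It was also the lowest in defence and protease genes, with Serpinb3a (9.26), Serpinb12 (10.11), Serpinb11 (8.0), Klk10 (7.83), Defb4 (9.96), Defb14 (7.71), Lypd3 (8.74), Calm4 (8.27) and Lgals7 (8.86), and in Ada (9.16), Alox12b (8.29), Psapl1 (8.32), Myh8 (12.48) and Acta1 (13.44). Its score of hair and epidermis genes was 0.14, where the next lung had 0.90, and its score of lung endothelium was the highest of the high lungs, 0.18 against -0.03 in the next. Its part in the class differences is given by the fit without it.

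Mouse 4 was the highest high lung in Arg1 (13.74), Serpina1b (16.05), Rag1 (10.88), Dntt (9.21), Cd8b1 (14.71) and Cd4 (8.66). Its scores were also the highest for hepatocyte genes (6.34, next 0.36), thymus genes (1.81, next 0.19) and salivary and mucous gland genes (0.43, next 0.14). Its scores for ciliated airway cells (-0.53, next -0.11) and lung fibroblasts and matrix (-0.29, next -0.09) were the lowest.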

How the results depend on the processing

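Most values kept their direction and their side of the threshold under the alternatives; among the named genes with a call, 3 changed sign and were no longer called with the muscle score as a covariate, those of Isl1 (-0.13), Hoxd8 (-0.061) and Chrna1 (-0.0049), and so did 7 that had no call. Probes called higher numbered 167 in AIRmin mice only, 152 without AIRmin saline, 174 with a mean for each cell and 50 with the muscle score as a covariate. Probes called lower numbered 17, 2 and 11 in the first 3 of these, 102 with the Krt13 level as a continuous term, 27 with the filter at 12 arrays, 82 with no covariates and 18 without mice 4, 9 and 20, a choice made after seeing the data. Leaving out 1 mouse at a time gave 223 to 344 higher and 4 to 120 lower, with 4 without mouse 4, 120 without mouse 9 and 28 without mouse 15. Calls between urethane and saline ran from 84 to 192 without the class, below 92 without any of mice 3, 5, 6, 10, 14, 18, 20, 21 and 22, and from 78 to 173 with it, the highest without mouse 16. Medians that moved by more than the spread between lungs were those of squamous keratins (0.75) and barrier defence genes (0.17) with the filter at 12 arrays, lymphocytes and natural killer cells in AIRmin mice only (0.38), and salivary and mucous glands with array weights (0.16). With the muscle score as a covariate the medians were 0.93 for squamous keratins, 1.55 for the cornified envelope, 0.30 for proteases and inhibitors, 0.024 for fast skeletal muscle, -0.082 for myogenic factors, -0.18 for muscle energy proteins, -0.15 for all muscle lists and -0.29 for hepatocyte genes. Not all of the 96 genes named by rule or by choice had a call to lose. Under that covariate 41 of them lost it with the same sign, besides the 3 that changed sign. The call was lost by 27 in AIRmin mice only, 23 without AIRmin saline, 17 with a mean for each cell and 12 without mouse 4. The cause of these changes was not tested. No paired analysis was possible because no mouse number occurs in more than one group. Signals near the top of the range limit what can be seen for the most abundant lung genes. The same holds for the brightest squamous genes in high lungs, such as Lor, which reached 16.05. Signals near the background limit are compressed.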
